A study of Mus musculus with 6 samples.

Results

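The genes described here encode the subunits of the mitochondrial respiratory chain and of ATP synthase, measured by RNA sequencing in bone marrow neutrophils of mice without a tumor and of mice with an early or a late lung tumor. They were chosen by symbol from the mouse annotation: protein-coding genes named Nduf, Sdha to Sdhd, Uqcr, Cyc1, Cox4 to Cox8 or Atp5, and the Nd, Co, Cytb and Atp genes of mitochondrial DNA. Of 38887 gene identifiers in the count table, 94 met this rule. They comprised 85 nuclear-encoded subunits and 9 other genes, namely 8 assembly factors whose symbols begin with Ndufaf and Atp5s. The 13 genes of mitochondrial DNA and a second identifier of Atp5o were not in the count table used here. The nuclear-encoded subunits could therefore not be set beside the mitochondrially encoded ones.

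Neutrophils were taken from the bone marrow of C57BL/6 mice with magnetic beads against Ly6G, a surface protein of neutrophils. The study bought its mice at 6 to 8 weeks of age, and the age at collection is not given in the sources used here. The naive group carried no tumor. The other groups, called 1-week and 3-week LL2 mice after the time since injection, had received LL2 cells, a Lewis lung carcinoma line that carried luciferase, by intravenous injection, which places the tumor in the lung. Each group had 2 libraries, labelled as replicate mice, so that every test below rests on 2 libraries against 2. Levels are given as CPM, counts per 1000000 of the library total times its TMM factor. The 12 neutrophil markers looked for summed to between 282009 and 345778 CPM, nearly all of it from granule and calprotectin genes such as S100a8. Within this list 2 markers were called higher and 3 lower at 3 weeks than in naive mice. Camp, a granule gene, had 17013 and 19917 CPM in naive libraries and 8093 and 9926 CPM at 3 weeks, Ltf and Ngp were also lower, and the chemokine receptor gene Cxcr2 and Retnlg were higher. Ly6g itself, the gene of the protein used for the selection, was near the limit of detection, at 0.491 to 2.13 CPM in the 6 libraries. Markers of other cells were also present, and some moved with the groups. The 8 B cell markers summed to 58.4 and 86.4 CPM in naive libraries, 61.9 and 51.5 CPM at 1 week and 22.4 and 14.1 CPM at 3 weeks. The 8 markers of eosinophils, basophils and mast cells summed to 37.9 and 41.7 CPM in naive libraries, 81.9 and 91.2 CPM at 1 week and 21.5 and 30.7 CPM at 3 weeks. The 8 markers of granulocyte precursors summed to 364 and 332 CPM, 294 and 369 CPM, and 387 and 495 CPM in the same order, and 5 of the 8 were higher and 3 lower at 3 weeks than in naive mice. Mpo, Elane, Prtn3, Ctsg and Ms4a3 were higher, with Mpo at 34.9 and 23.3 CPM in naive libraries and 119 and 167 CPM at 3 weeks. Cebpe, Mki67 and Top2a were lower, with Top2a at 176 and 150 CPM in naive libraries and 62.7 and 67.0 CPM at 3 weeks. The 8 erythroid markers summed to 1186 to 1493 CPM in 5 libraries and to 568 CPM in the second 3-week library, which stood apart from the first at 1328 CPM. The 8 monocyte and macrophage markers summed to 134 to 178 CPM and the 6 T and NK cell markers to 4.74 to 13.7 CPM. No marker of these lists was at 0 in all libraries. The part of these cells in the results below was not tested, and in bulk RNA fewer cells of a type and less RNA per cell cannot be told apart.

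Complexes I and II pass electrons from NADH and succinate to ubiquinone, complex III passes them on to cytochrome c, and complex IV reduces oxygen with them. Complexes I, III and IV pump protons across the inner membrane as they do so, and complex V, the ATP synthase, uses the returning protons to make ATP. Complex II is encoded wholly in the nucleus, whereas the other complexes also need subunits made from mitochondrial DNA. Neutrophils are known for few mitochondria and a strong reliance on glycolysis. The study asked whether oxidative phosphorylation differs between neutrophils of early and late tumors, and the transcripts of its machinery are the values given here.

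In all, the 94 genes held 0.606% and 0.630% of the counts in the naive libraries, 0.785% and 0.746% at 1 week and 0.688% and 0.667% at 3 weeks, out of 11994158 to 14127919 counts per library. The lowest share at either time was above both naive shares. After TMM scaling, the subunits of all complexes summed to 5692 and 6312 CPM in naive mice, 7269 and 7044 CPM at 1 week and 7481 and 7113 CPM at 3 weeks. The 4 subunits of complex II summed to 175 and 178 CPM in naive libraries, 194 and 198 CPM at 1 week and 253 and 248 CPM at 3 weeks, a ratio of means to naive of 1.11 and 1.42. Complex I summed to 1814 and 2054 CPM, 2442 and 2366 CPM, and 2420 and 2262 CPM in the same order, with the tumor groups overlapping each other and lying above naive. Complexes III, IV and V likewise lay above naive at both times, by ratios of 1.09, 1.23 and 1.15 at 1 week and 1.13, 1.24 and 1.22 at 3 weeks.

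**Figure D1:**
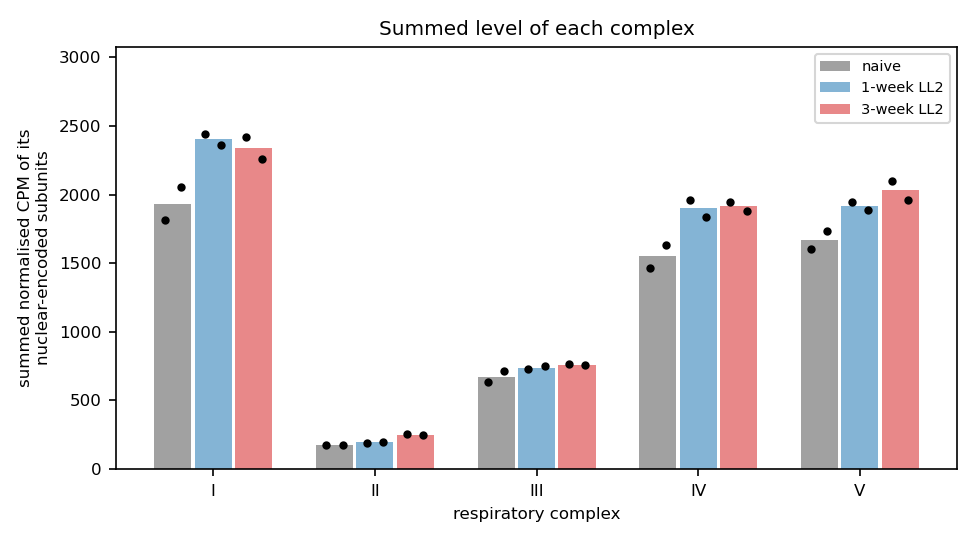
Summed level of the nuclear-encoded subunits of each respiratory complex, in normalised CPM (y axis, from 0), for the naive, 1-week LL2 and 3-week LL2 groups; bars are means of 2 libraries and points are the libraries. Complex II is highest at 3 weeks (253 and 248 CPM), while complex I stands at a mean of 2404 CPM at 1 week and 2341 CPM at 3 weeks.

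Levels of single subunits, given per kilobase of transcript so that genes can be compared, spread widely within each complex in naive neutrophils. The highest in complex I was Ndufa1, a membrane arm subunit, at 317 CPM per kilobase. The lowest was Ndufab1, the mitochondrial acyl carrier protein, at 5.54 CPM per kilobase. That rank rests on the transcript length taken for Ndufab1, 3479 bases. In CPM, the lowest subunit of complex I was Ndufs3 at 10.6 CPM, and Ndufab1 stood at 19.3 CPM. In complex II the iron-sulphur subunit Sdhb stood at 66.4 and the membrane anchor Sdhd at 2.81 CPM per kilobase. Uqcrh, the hinge protein of complex III, reached 572 CPM per kilobase, against 6.21 for the core protein Uqcrc1. Cox8a of complex IV reached 538 CPM per kilobase and Atp5g3, which encodes subunit c of the membrane rotor of ATP synthase, 521 CPM per kilobase. These levels leave out copies of the genes elsewhere in the genome, described further on. For Atp5l of ATP synthase such copies held 73.5% of the joint counts. Among the core subunits of complex I, which carry its flavin and iron-sulphur clusters, Ndufs1 stood at 6.47 and Ndufs7 at 30.1 CPM per kilobase.

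Of the complex IV subunits with tissue-restricted forms, the general form held nearly all counts. Cox4i2, the lung and oxygen-responsive form of subunit 4, had 1 count in all 6 libraries against 10365 for Cox4i1. The muscle form Cox6a2 held 0.376% of the counts of Cox6a1 and Cox6a2 together, Cox7a1 held 0.206% beside Cox7a2, and Cox7b2 0.116% beside Cox7b. The testis form Cox6b2 held 1.12% beside Cox6b1 and was the one restricted form with enough counts to be tested. Cox8b, Cox8c and Ndufa4l2 were at 0 in every library, where 3 counts would have been 0.200 to 0.245 CPM. Together with Atp5g2, which was also at 0, and with Atp5s, Ndufaf2 and Ndufaf6, these made 11 genes too low to be tested, none above 0.894 CPM in any library. The other 83 genes, 77 of them subunits, were tested.

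The first comparison asked which of these genes differ between neutrophils of 1-week LL2 mice and naive mice. Of the 83 tested genes, 16 were called higher and 0 lower by edgeR's quasi-likelihood test at an adjusted p under 0.05, against a background of 4.23% of all 12259 tested genes called higher and 3.76% lower. DESeq2 called 15 higher and 0 lower, and at an unadjusted p under 0.05 edgeR gave 38 higher and 1 lower, where the shares over all tested genes were 12.2% and 11.0%. The median log2 fold change of the 77 subunits was 0.29, or 1.22-fold, against 0.01 over all tested genes, and 69 of the 77 had a positive value. The groups did not overlap, with 1 week the higher, in 58 of the 83 genes, where the background was 27.1%, and with 1 week the lower in 4, where it was 26.1%. By complex, 6 of 36 subunits of complex I rose, 0 of 4 of complex II, 2 of 9 of complex III, 3 of 13 of complex IV and 4 of 15 of complex V. The remaining call was Ndufaf3, an assembly factor of complex I. In complex II no subunit was called by edgeR or DESeq2, and none had an unadjusted p under 0.05.

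The lowest adjusted p at 1 week was that of Atp5j. Atp5j, which encodes coupling factor 6 in the peripheral stalk of ATP synthase, had 41.8 and 41.5 CPM in the naive libraries, 85.7 and 70.2 CPM at 1 week and 59.0 and 56.3 CPM at 3 weeks. The 1-week libraries were the highest and the naive ones the lowest, with no overlap between any of the groups, and the rise over naive was 1.87-fold (log2 fold change 0.91 ± 0.13, adjusted p = 0.0017). Cox7c, a small subunit of complex IV, had 63.7 and 79.3 CPM in the naive libraries, 193 and 111 CPM at 1 week and 122 and 115 CPM at 3 weeks. It rose 2.13-fold (log2 fold change 1.09 ± 0.20, adjusted p = 0.0075), and one of the 1-week libraries was well above the other. Uqcrc1, a core protein of complex III, had 7.11 and 13.4 CPM in the naive libraries, 22.7 and 19.4 CPM at 1 week and 17.4 and 11.2 CPM at 3 weeks. Its rise at 1 week was 2.05-fold (log2 fold change 1.04 ± 0.26, adjusted p = 0.03), and the 3-week libraries overlapped the naive ones. Ndufa1 had 129 and 136 CPM in the naive libraries, 249.9 and 188 CPM at 1 week and 232 and 209.5 CPM at 3 weeks, so that both tumor groups lay above naive and overlapped each other. Its rise was 1.65-fold at 1 week (log2 fold change 0.72 ± 0.14, adjusted p = 0.0081).

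Ndufs5, an accessory subunit of complex I, had 28.0 and 33.5 CPM in the naive libraries, 58.1 and 55.5 CPM at 1 week and 49.5 and 48.6 CPM at 3 weeks and a 1.85-fold rise (log2 fold change 0.89 ± 0.13, adjusted p = 0.002), a call that was lost when the counts of a processed copy of the gene were added, as described further on. Ndufb6, in the membrane arm of complex I, rose 1.56-fold (adjusted p = 0.016). Cox6b1, which joins the monomers of complex IV into a dimer, rose 1.43-fold (adjusted p = 0.016), and Cox4i1, the general form of subunit 4, 1.37-fold (adjusted p = 0.036). Uqcrfs1, the Rieske iron-sulphur protein of complex III, had 43.2 and 41.2 CPM in the naive libraries, 67.3 and 56.9 CPM at 1 week and 67.3 and 62.9 CPM at 3 weeks, with both tumor groups above naive (log2 fold change 0.56 ± 0.13, adjusted p = 0.019 at 1 week). In ATP synthase, Atp5a1 of the catalytic head rose 1.38-fold (adjusted p = 0.036), and Atp5j2 and Atp5h of the membrane and stalk part 1.42-fold and 1.33-fold (adjusted p = 0.026 and 0.042). The other called subunits were Ndufv3, Ndufb5 and Ndufb11 of complex I, with log2 fold changes of 0.51, 0.52 and 0.50.

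Of the 7 core subunits of complex I, 0 were called at 1 week by either tool, and 1, Ndufs3, had an unadjusted p under 0.05. Over all tested genes edgeR called 4.23% higher and 3.76% lower, and 12.2% and 11.0% at an unadjusted p under 0.05. A set of 7 genes is too small to be set apart from these shares. Ndufs3 had 9.17 and 12 CPM in the naive libraries, 17.3 and 15 CPM at 1 week and 11.8 and 10.3 CPM at 3 weeks (log2 fold change 0.61 ± 0.19, adjusted p = 0.062). The 1-week libraries did not overlap the other groups. The 7 core subunits had a median log2 fold change of 0.16 at 1 week, against 0.33 for the 29 accessory subunits. No test set these medians against each other.

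The number of calls at 1 week changed with single libraries and with a joint adjustment for transcript length and GC content. Without a naive or a 1-week library fewer were called, among these genes and over all tested genes. The median log2 fold change of the subunits was 0.19 without the first naive library and 0.36 without the second. Over all genes it was 0.02 and 0.03. Leaving out the first or the second 1-week library gave 0.28 and 0.27. Atp5j was the one gene called at 1 week under all 16 alternatives. Transcripts of these genes were short, with a median of 865 bases over the 83 against 2738 bases over 12101 tested genes with a known length. When offsets for transcript length and GC content were added, 7 genes were called higher and 3 lower, and the median of the subunits was 0.13 against 0.02 for all genes.

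**Figure D2:**
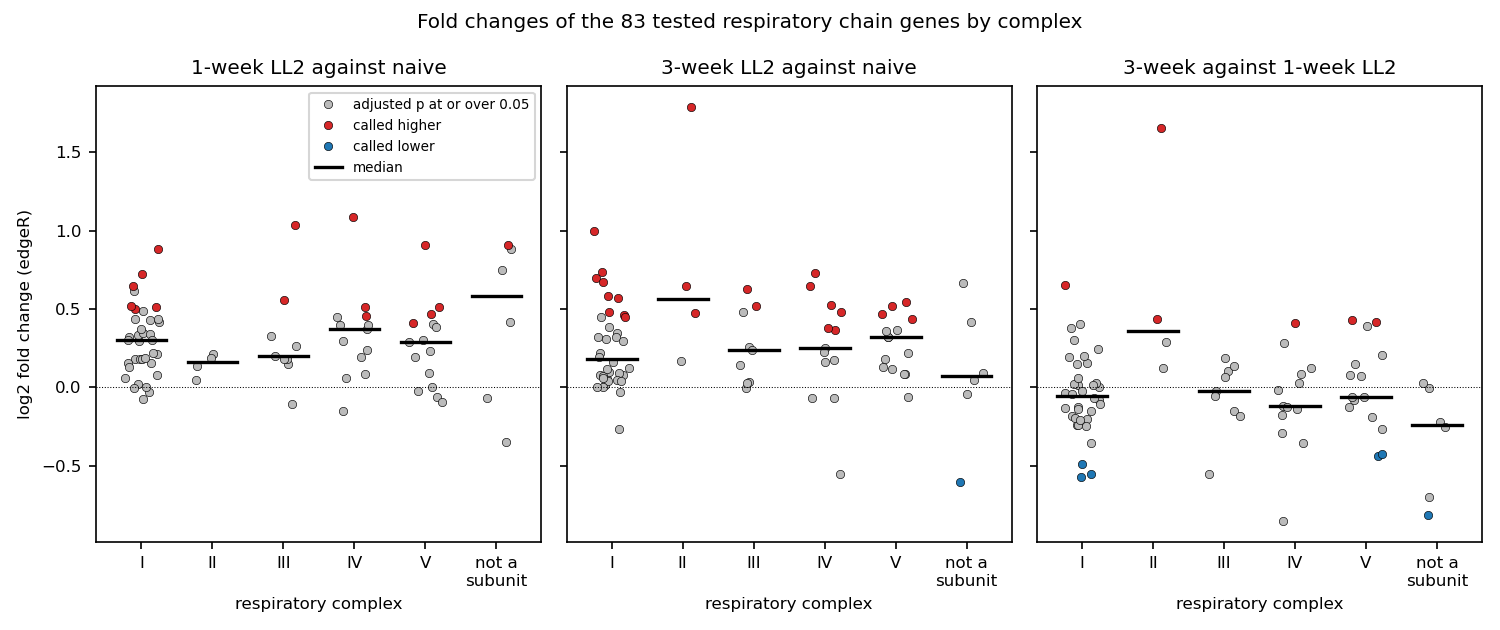
Log2 fold change (y axis) of each tested gene by respiratory complex (x axis; the last column holds 6 genes that are not subunits), for 1-week LL2 against naive, 3-week LL2 against naive and 3-week against 1-week LL2. Each point is a gene, red if called higher, blue if called lower and grey otherwise, and lines are medians; complex II has a median of 0.16 in the first panel and 0.56 in the second.

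The second comparison set 3-week LL2 mice against the same naive libraries. Here 24 of the 83 genes were called higher, against a background of 12% of all tested genes, and 1 was called lower, against 9.42%. DESeq2 called 20 higher and 1 lower. The subunits had a median log2 fold change of 0.24, or 1.18-fold, against 0.03 over all genes. Both 3-week libraries lay above both naive libraries in 48 of the 83 genes and below them in 1, where the background was 32.1% and 27.5%. By complex, 9 of 36 subunits of complex I rose, 3 of 4 of complex II, 2 of 9 of complex III, 6 of 13 of complex IV and 4 of 15 of complex V. The gene that fell was Ndufaf8, an assembly factor of complex I.

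Complex II, which is also succinate dehydrogenase of the citric acid cycle, had the highest median log2 fold change of the 5 complexes at 3 weeks, 0.56 against 0.18 to 0.32. Sdhd, the small membrane anchor, had 3.56 and 3.35 CPM in the naive libraries, 3.87 and 3.72 CPM at 1 week and 8.83 and 15.1 CPM at 3 weeks, from 41 to 58 counts per library in naive and 1-week mice and 114 and 197 counts at 3 weeks. The 3-week libraries were apart from the rest, though they differed from each other, and the rise was 3.46-fold over naive (log2 fold change 1.79 ± 0.28, adjusted p = 5.6e-04). Sdhb, the iron-sulphur subunit, had 72.9 and 78.8 CPM in the naive libraries, 82.0 and 93.9 CPM at 1 week and 123 and 115 CPM at 3 weeks, rising at each step, with a 1.57-fold difference at 3 weeks (log2 fold change 0.65 ± 0.12, adjusted p = 0.002). Sdhc, the large membrane anchor, had 37.6 and 39.8 CPM in the naive libraries, 47.3 and 40.7 CPM at 1 week and 56.6 and 50.9 CPM at 3 weeks and rose 1.39-fold (log2 fold change 0.47 ± 0.13, adjusted p = 0.02). Sdha, the flavoprotein, had 60.9 and 55.9 CPM in the naive libraries, 60.5 and 60.0 CPM at 1 week and 64.6 and 66.8 CPM at 3 weeks. Its 3-week libraries were the highest of the 6, but the difference did not pass the test (log2 fold change 0.17 ± 0.12, adjusted p = 0.35). At 1 week the differences from naive were 0.04 for Sdha, 0.21 for Sdhb, 0.19 for Sdhc and 0.14 for Sdhd on the log2 scale, with adjusted p-values of 0.87, 0.32, 0.43 and 0.84. The calls of Sdhb and Sdhd against naive held under all 16 alternatives. That of Sdhc was lost in 3 of the 6 fits without a library and with library totals in place of TMM.

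**Figure D3:**
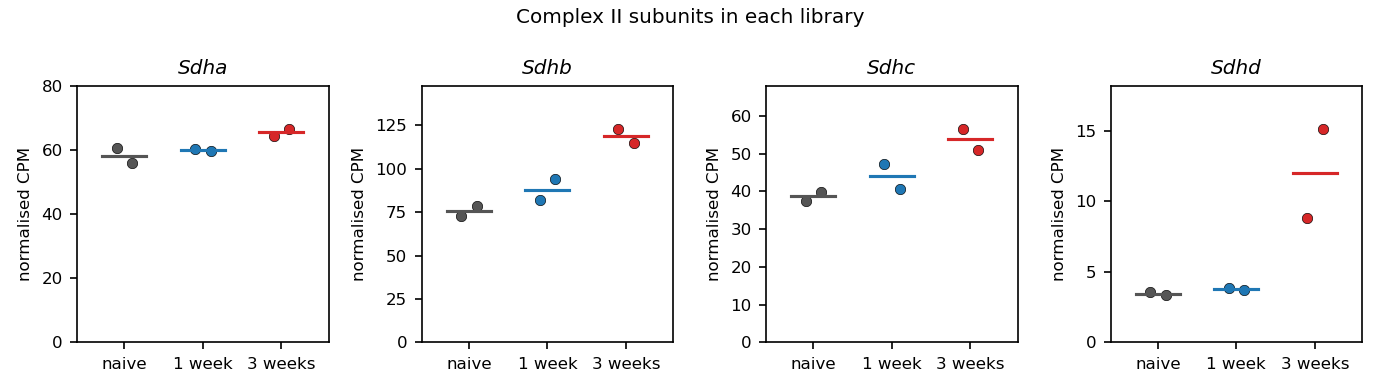
Normalised CPM (y axis, from 0) of the 4 complex II genes in naive mice and in LL2 mice at 1 and 3 weeks; points are libraries and lines their means. For all 4 genes the 3-week libraries lie above all other libraries, and Sdhd goes from 3.56 and 3.35 CPM in naive mice to 8.83 and 15.1 CPM at 3 weeks.

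Ndufa8, an accessory subunit of complex I on the side of the intermembrane space, had 43.5 and 54.5 CPM in the naive libraries, 60.8 and 63.3 CPM at 1 week and 105 and 90.4 CPM at 3 weeks. It rose 2.00-fold at 3 weeks (log2 fold change 1.00 ± 0.14, adjusted p = 2.6e-04), with no overlap between the 3 groups. Ndufa11, of the membrane arm, had 38.1 and 49.3 CPM in the naive libraries, 53.3 and 55.8 CPM at 1 week and 77.3 and 64.8 CPM at 3 weeks and rose 1.62-fold (log2 fold change 0.70 ± 0.15, adjusted p = 0.0043). Cox7a2l, grouped here with complex IV, had 154 and 159 CPM in the naive libraries, 173 and 196 CPM at 1 week and 223 and 266 CPM at 3 weeks. It rose 1.57-fold at 3 weeks (log2 fold change 0.65 ± 0.12, adjusted p = 0.0024), and its 3-week libraries were the highest. Uqcrfs1 rose 1.54-fold (log2 fold change 0.63 ± 0.13, adjusted p = 0.0038) and Ndufa1 1.67-fold (log2 fold change 0.74 ± 0.14, adjusted p = 0.0021), close to their values at 1 week. Uqcrq of complex III rose 1.43-fold and Cox6c of complex IV 1.44-fold (adjusted p = 0.014 and 0.0097). Atp5a1 of the ATP synthase head rose 1.46-fold (adjusted p = 0.0072). Atp5b, the catalytic beta subunit, had 75.3 and 86.9 CPM in the naive libraries, 109.9 and 105 CPM at 1 week and 108 and 95.4 CPM at 3 weeks and was not called in any comparison, with adjusted p-values of 0.062 at 1 week and 0.081 at 3 weeks. The other called genes, among them Ndufa10 and Ndufb2 of complex I and Atp5f1 of the stalk of ATP synthase, had log2 fold changes between 0.36 for Cox5b and 0.73 for Cox7c. Cyc1, the cytochrome c1 of complex III, and Atp5c1, the central stalk of ATP synthase, were not called in any comparison. Cyc1 had 16.8 and 25.6 CPM in the naive libraries, 23.7 and 23.2 CPM at 1 week and 27.7 and 22.7 CPM at 3 weeks, and Atp5c1 had 83.7 and 85.2 CPM in the naive libraries, 78.3 and 83.2 CPM at 1 week and 86.9 and 92.4 CPM at 3 weeks.

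None of the 7 core subunits of complex I was called at 3 weeks by edgeR or DESeq2, and 1, Ndufv2, had an unadjusted p under 0.05 (23.3 and 29.4 CPM in naive libraries and 36.0 and 32.7 CPM at 3 weeks, adjusted p = 0.082). Over all tested genes edgeR called 12% higher and 9.42% lower, and 18.6% and 15.2% at an unadjusted p under 0.05. These 7 genes are too few to be set apart from these shares. Ndufaf8 had 22.8 and 26.1 CPM in the naive libraries, 18.7 and 19.7 CPM at 1 week and 17.1 and 15 CPM at 3 weeks. It fell at 3 weeks (log2 fold change -0.61 ± 0.15, adjusted p = 0.013), and its 1-week libraries lay between the other groups. With library totals 11 genes were called higher at 3 weeks, where the median of the subunits was 0.095 against -0.11 for all genes. Fewer were also called without the first naive or the first 3-week library, among these genes and over all tested genes. The medians of the subunits were then 0.13 and 0.22, against 0.0075 and 0.03 for all genes. Ndufaf8 was not called lower without the second naive or the second 3-week library. Ndufa8, Sdhd, Sdhb, Ndufa1, Cox7a2l and Uqcrfs1 were called higher under all 16 alternatives. With offsets for length and GC content 19 genes were called higher and 1 lower, and the median of the subunits was 0.14.

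Of the 83 tested genes, 11 were called higher than naive at both times, 5 at 1 week alone and 13 at 3 weeks alone. The comparisons share the naive libraries, and no share over all tested genes is given for these patterns. The counts are therefore given as a description. The 11 were Ndufa1, Ndufb5, Ndufb6, Ndufs5 and Ndufv3 of complex I, Uqcrfs1 of complex III, Cox4i1, Cox6b1 and Cox7c of complex IV, and Atp5a1 and Atp5j of complex V. With the counts of processed copies added, Ndufs5 lost both calls and Atp5l lost its call at 3 weeks. By group means, with no test, 40 of the 83 genes (48.2%) were highest at 1 week and lowest in naive mice, and 26 (31.3%) had the order naive, 1 week, 3 weeks from low to high. These orders were found in 16.5% and 17.5% of all tested genes. A call at one time and not at the other does not show a difference between the times, which the direct comparison tests.

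That comparison, 3 weeks against 1 week after injection, gave 6 of 83 genes higher at 3 weeks, against a background of 12.9%, and 6 lower, against 9.57%. DESeq2 called 7 higher and 4 lower. The median log2 fold change of the subunits was -0.04, against -0.02 over all genes, and it turned to 0.05 with offsets for length and GC content. Without overlap between the groups, the 3-week libraries were higher in 21 genes and lower in 32, where the background was 31.6% and 32.3%. The split of the calls depended on the scaling. It was 2 higher and 19 lower with library totals, which moved the median of all genes to -0.22, and 11 higher and 3 lower with the offsets. Without a 1-week or a 3-week library fewer were called, among these genes and over all tested genes. The median of the subunits was then -0.062 or -0.077 without the first or the second 1-week library. Without the first or the second 3-week library it was -0.055 or -0.013.

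The genes higher at 3 weeks than at 1 week were Sdhd (log2 fold change 1.66 ± 0.27, adjusted p = 7.8e-04), Ndufa8 (log2 fold change 0.66 ± 0.14, adjusted p = 0.0039), Sdhb, Cox7a2l, Atp5l and Atp5g3. The last 4 had log2 fold changes of 0.43, 0.41, 0.43 and 0.42. That of Atp5l was not called when the counts of its processed copies were added (log2 fold change 0.27 ± 0.11, adjusted p = 0.1). All 4 subunits of complex II lay higher in both 3-week than in both 1-week libraries, and 2 of them were called. For Sdha and Sdhc the log2 fold changes were 0.12 and 0.29 (adjusted p = 0.49 and 0.13). Atp5g3 had 360.5 and 384 CPM in the naive libraries, 354 and 342 CPM at 1 week and 510.2 and 419 CPM at 3 weeks, with the 1-week libraries the lowest. Sdhd and Ndufa8 kept their call under all 16 alternatives, and the other 4 lost it without a 1-week library.

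The genes lower at 3 weeks than at 1 week were the core subunits Ndufs3 and Ndufs7 and the accessory subunit Ndufa9 of complex I, Atp5j and Atp5j2 of ATP synthase, and the assembly factor Ndufaf3. Ndufs7, which carries the last iron-sulphur cluster before ubiquinone, had 20.5 and 25.1 CPM in the naive libraries, 25.7 and 30.5 CPM at 1 week and 16.9 and 20.9 CPM at 3 weeks (log2 fold change -0.57 ± 0.17, adjusted p = 0.025). Against naive its differences did not pass the test, with log2 fold changes of 0.30 at 1 week and -0.27 at 3 weeks. Ndufs3 fell 1.47-fold (log2 fold change -0.55 ± 0.19, adjusted p = 0.047) to levels that overlapped naive, where its log2 fold change was 0.06. Ndufa9 had 20.4 and 22.0 CPM in the naive libraries, 29.9 and 29.6 CPM at 1 week and 22.9 and 19.6 CPM at 3 weeks (log2 fold change -0.49 ± 0.14, adjusted p = 0.026). The 1-week libraries stood above the others, and those at 3 weeks spanned the naive range. Ndufaf3 had 5.45 and 4.01 CPM in the naive libraries, 9.93 and 7.82 CPM at 1 week and 4.42 and 5.69 CPM at 3 weeks, again with 1-week libraries above the rest (log2 fold change -0.81 ± 0.25, adjusted p = 0.033). Atp5j2 had 68.9 and 84.3 CPM in the naive libraries, 107 and 111 CPM at 1 week and 82.4 and 80.1 CPM at 3 weeks (log2 fold change -0.43 ± 0.13, adjusted p = 0.027), and Atp5j had the log2 fold change -0.44 (adjusted p = 0.027). All 6 lost their call in at least 2 of the 6 fits without a library, a 1-week library among them.

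**Figure D4:**
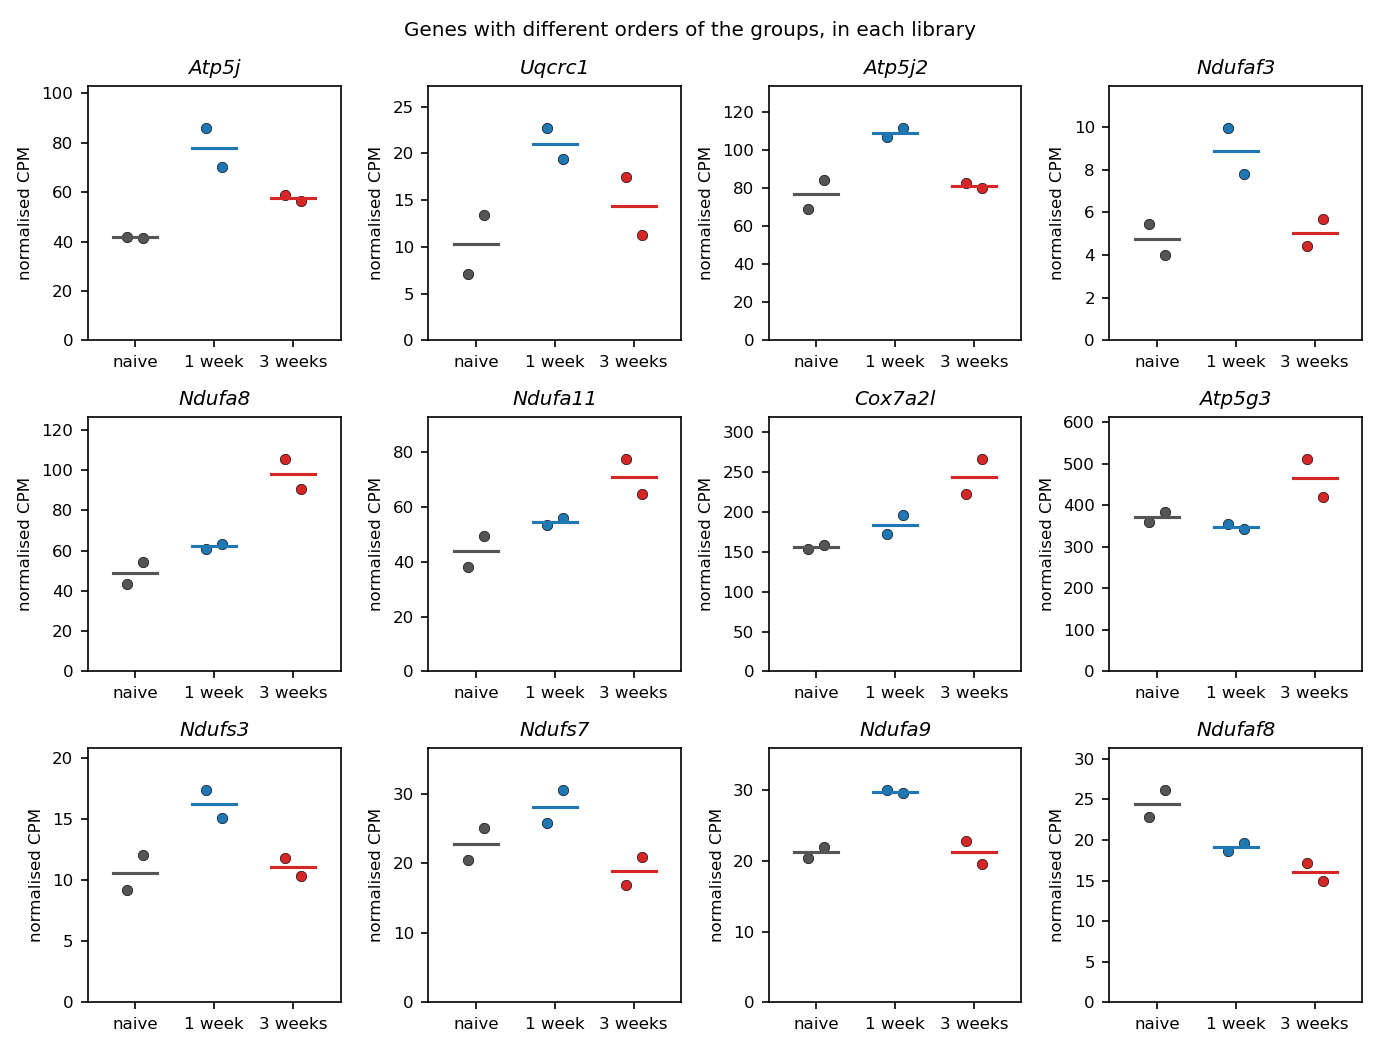
Normalised CPM (y axis, from 0) of 12 genes in naive mice and in LL2 mice at 1 and 3 weeks; points are libraries and lines their means. Atp5j, Atp5j2, Ndufaf3, Ndufs3 and Ndufa9 are highest at 1 week, while Ndufa8, Ndufa11 and Cox7a2l are highest at 3 weeks and Ndufaf8 is highest in naive mice.

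Several of these genes have copies elsewhere in the genome that the annotation lists as pseudogenes, called processed copies here. They matched a transcript of the gene at 90% identity or more over at least 75% of the copy. Whether each was made from spliced RNA was not checked. The program that estimated the counts divides reads between a gene and such copies. Of the 94 genes, 33 had 1 or more such copies in the count table, 59 in all. For 7 genes the copies held over 10% of the joint counts, and for the other 26 they held under 1%. Ndufs5 had 354 and 410 counts in naive mice, 871 and 745 at 1 week and 639 and 632 at 3 weeks. Its copy BC002163 had 221 and 278, 52 and 0, and 119 and 0 counts in the same order, so counts of the copy were highest where those of the gene were lowest. With the copy added, Ndufs5 was not called at 1 week (log2 fold change 0.20 ± 0.14, adjusted p = 0.44) or at 3 weeks (log2 fold change 0.08 ± 0.14, adjusted p = 0.76).

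Atp5l, subunit g of ATP synthase, had 1856 and 1562 counts in naive mice, 2228 and 1930 at 1 week and 2420 and 2689 at 3 weeks, while its copies held 73.5% of the joint counts. Its call at 3 weeks was lost when they were added (log2 fold change 0.12 ± 0.11, adjusted p = 0.5). Cox7c kept its calls with its copies, which held 47.0%, at log2 fold change 0.67 ± 0.13, adjusted p = 0.0094 at 1 week and log2 fold change 0.52 ± 0.13, adjusted p = 0.013 at 3 weeks. Atp5j, with 11.8% of joint counts in its copy, also stayed higher at 1 week (log2 fold change 0.79 ± 0.13, adjusted p = 0.003) and at 3 weeks (log2 fold change 0.43 ± 0.13, adjusted p = 0.029), but its fall between 1 and 3 weeks then missed the threshold (log2 fold change -0.36 ± 0.13, adjusted p = 0.052). Atp5g2, one of the 3 genes of subunit c, was listed at 0 throughout, and its copies, nearly all of the counts in Gm10175, held 674 and 703 counts in naive mice, 1073 and 916 at 1 week and 772 and 743 at 3 weeks. Ndufb4 and Ndufa12, with 30.1% and 22.3% in copies, were not called with or without them. Apart from copies, 10 genes shared at least 10% of their exon bases with a gene on the other strand, among them the called genes Atp5j, with Gabpa, Ndufb6, with Smim27, Ndufb5, with Mrpl47, and Ndufb11, with Rbm10. The sources used here do not say whether counting used the strand.

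**Figure D5:**
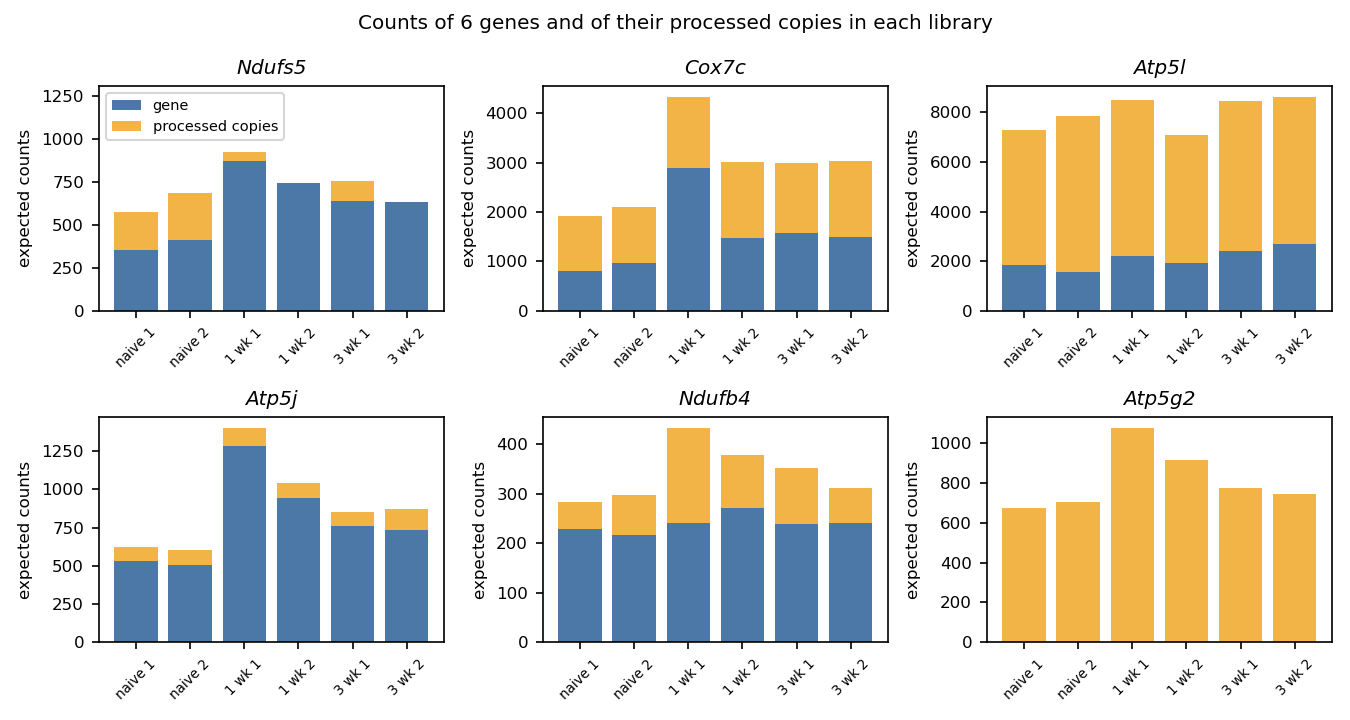
Expected counts (y axis) in each library of 6 respiratory chain genes (blue) and, stacked on them, of their processed copies (yellow). The copy of Ndufs5 falls from 221 and 278 counts in naive mice to 0 in one library of each tumor group, and all counts of Atp5g2 lie in its copies.

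Nuclear genes of the respiratory chain are known as targets of NRF1, of ETS family factors such as GABP and of YY1, so their promoters were searched for these motifs. The window ran from 250 bases before to 50 bases after the start of transcription in RefSeq for GRCm38.p6, and 76 of the 94 genes had one. The NRF1 motif, GCGCA and GCGC with any base between them, lay on either strand in 25% of the 76, against 7.17% of the 17491 protein-coding genes with a window. CCGGAAG, the ETS motif, lay in 23.7% against 12.9%, and AAGATGGC, the YY1 motif, in 14.5% against 3.57%. For CCAAT, the motif of NF-Y, the shares were 44.7% and 42.3%. Among the genes called higher than naive at either time, 24 had a window, and 25% of them held the NRF1 motif, against 26.1% of 46 tested genes that were not. The ETS motif lay in 29.2% and 23.9%, YY1 in 12.5% and 17.4% and CCAAT in 37.5% and 45.7%. These shares are a description. The 120 bases before the start are printed for Sdhd, Ndufa8, Ndufa11 and Cox6b1, which rose, and for Sdha, which holds 3 NRF1 motifs and was not called. They read 5′ to 3′ on the strand of the gene, with matches to the motifs, on either strand, in capitals.
Sdhd, chr9:50603850-50603969 (minus strand): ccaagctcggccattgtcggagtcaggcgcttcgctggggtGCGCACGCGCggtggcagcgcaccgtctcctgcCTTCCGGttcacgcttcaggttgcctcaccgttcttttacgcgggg
Ndufa8, chr2:36049339-36049458 (minus strand): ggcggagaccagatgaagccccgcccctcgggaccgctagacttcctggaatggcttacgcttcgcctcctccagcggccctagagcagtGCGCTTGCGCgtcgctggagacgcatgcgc
Ndufa11, chr17:56717642-56717761 (plus strand): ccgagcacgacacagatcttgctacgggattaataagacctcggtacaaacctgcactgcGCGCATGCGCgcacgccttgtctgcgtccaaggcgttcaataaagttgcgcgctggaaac
Cox6b1, chr7:30626115-30626234 (minus strand): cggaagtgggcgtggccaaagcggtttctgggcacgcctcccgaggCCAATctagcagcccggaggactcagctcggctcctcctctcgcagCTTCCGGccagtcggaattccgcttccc
Sdha, chr13:74350241-74350360 (minus strand): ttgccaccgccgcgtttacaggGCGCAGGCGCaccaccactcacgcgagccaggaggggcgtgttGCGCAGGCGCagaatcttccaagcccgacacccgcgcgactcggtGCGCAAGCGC
In Sdhd the NRF1 match comes first and the ETS match, on the other strand, second. Ndufa8 and Ndufa11 each hold an NRF1 match, and Cox6b1 a CCAAT and an ETS match.

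The counts of called genes in the other lists of the pathway stand beside the same shares of all tested genes, 4.23% higher and 3.76% lower at 1 week, 12% and 9.42% at 3 weeks, and 12.9% and 9.57% between the times. Of 36 tested assembly factors outside the symbols above, 1 was called at 1 week, Sco1, a copper chaperone of complex IV, with 4.01 ± 0.586 CPM in naive mice and 8.62 ± 2.76 CPM at 1 week (SD, n = 2; log2 fold change 1.1 ± 0.27, adjusted p = 0.027). At 3 weeks 1 was called higher, Foxred1, a complex I assembly factor (log2 fold change 0.64 ± 0.21, adjusted p = 0.045), and 1, Cox20, was lower than at 1 week (log2 fold change -0.58 ± 0.19, adjusted p = 0.044). Among 23 tested genes of the mobile carriers, of coenzyme Q synthesis and of ATP export, 2 were higher at 1 week and 4 at 3 weeks. Usmg5, a small protein bound to ATP synthase whose symbol falls outside the rule, had 46.1 ± 0.198 CPM in naive mice, 78.5 ± 17.4 CPM at 1 week and 69.9 ± 12.9 CPM at 3 weeks and rose at both times (log2 fold change 0.77 ± 0.16, adjusted p = 0.014 at 1 week). Slc25a5, an ADP/ATP carrier, rose at 3 weeks (log2 fold change 0.84 ± 0.16, adjusted p = 0.0029), and so did Coq8a of coenzyme Q synthesis, from 0.526 ± 0.297 to 2.35 ± 0.586 CPM (adjusted p = 0.02). Ucp2, a carrier of the inner membrane, rose at 1 week (log2 fold change 0.45 ± 0.12, adjusted p = 0.044).

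Of 25 tested genes that replicate, transcribe or handle mitochondrial DNA and its RNA, 2 were higher and 1 lower at 1 week, and 2 were higher and 2 lower at 3 weeks. Ssbp1, the mitochondrial single-stranded DNA binding protein, had 7.34 ± 1.25 CPM in naive mice, 14.4 ± 1.16 CPM at 1 week and 15.2 ± 0.454 CPM at 3 weeks and rose at both times (log2 fold change 0.97 ± 0.18, adjusted p = 0.008 and log2 fold change 1.05 ± 0.18, adjusted p = 0.0014). Slirp and Lrpprc, whose proteins bind each other and stabilise mitochondrial messenger RNA, went in opposite directions at 1 week. Slirp rose (log2 fold change 0.81 ± 0.16, adjusted p = 0.0081) and Lrpprc fell (log2 fold change -1.12 ± 0.27, adjusted p = 0.026). Polg, the mitochondrial DNA polymerase, was lower at 3 weeks than in naive mice (log2 fold change -0.55 ± 0.15, adjusted p = 0.019). Of 12 tested nuclear regulators, the smallest adjusted p at 1 week was 0.053, for Hif1a, which encodes a subunit of the hypoxia-inducible factor. At 3 weeks Hif1a (log2 fold change 0.58 ± 0.14, adjusted p = 0.0094) and Gabpa (log2 fold change 0.78 ± 0.21, adjusted p = 0.019), the DNA-binding part of GABP, were higher than in naive mice. Gabpa shares 397 exon bases with Atp5j on the other strand and had 691 counts in all libraries, against 4759 for Atp5j. Whether reads of Atp5j were counted for Gabpa was not tested.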

How the data were processed

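RNA sequencing libraries were made from Ly6G-selected neutrophils of bone marrow, 2 for each of the groups naive, 1-week LL2 and 3-week LL2. The deposited table holds expected counts per Ensembl gene that the authors estimated with RSEM 1.2.31 per the labels (the study's methods give another version) after Bowtie2 alignment to mm10. Read length is also given differently in the labels and the methods. The counts held whole numbers and were used as deposited, with 0 columns left out. Identifiers were named with GENCODE M21 for GRCm38, which matched 37570 of 38887. Near-identical copies share reads by estimation, which can move counts between a gene and its copy.

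Genes passing filterByExpr (12259) were fitted over all 6 libraries with edgeR 4.0.16 in R 4.3.3 (TMM scaling, quasi-likelihood test, two-sided), with Benjamini-Hochberg adjustment over all tested genes and a threshold of 0.05. Values after ± are standard errors for log2 fold changes, taken as the absolute log2 fold change divided by the square root of the test's F statistic. The labels number the libraries as replicate mice. The tests set group differences against the spread between these libraries, which was estimated in part across all tested genes. A figure legend of the study gives 3 samples per group, while the labels used here give 2. Counting limits of 3 counts per library cover counting error only. Replicates differed by more than sampling noise, with chi-square per degree of freedom of 9.75, 8.34 and 11.4. Same-numbered libraries did not deviate together (r = 0.010, 0.036 and 0.038), so the numbers were not taken as pairs. Alternatives were DESeq2 1.42.0, other scaling, filters and samples, a replicate block, offsets for length and GC content, and sums with copies found with BLAST+ 2.17.0. The fit was also run on simulated data with 200 changed genes, drawn with a common dispersion for all genes. Its outcome is not reported here, and it does not measure how reliable the calls on these genes are.

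Genes were named where called, where core subunits or tissue-restricted forms of the chain, where not tested, or, in the other pathway lists, where called among the 3 smallest adjusted p-values of a comparison. The genes and lists were chosen with earlier results of these data known. The separate values of some genes are not reported here.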

Additional observations from a re-analysis of the deposited data

Results flagged for a closer look

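The difference from naive mice changed between 1 and 3 weeks in 12 respiratory chain genes, by edgeR's test of the 3-week against the 1-week libraries. They were 6 of 83 higher and 6 lower, under the shares of all tested genes called, 12.9% and 9.57%. Log2 fold changes of 3 weeks over 1 week were 1.66 for Sdhd and 0.43 for Sdhb of complex II, 0.66 for Ndufa8, 0.41 for Cox7a2l, and 0.43 and 0.42 for Atp5l and Atp5g3 of ATP synthase. They were -0.55 for Ndufs3, -0.57 for Ndufs7 and -0.49 for Ndufa9 of complex I, -0.81 for the assembly factor Ndufaf3, and -0.44 and -0.43 for Atp5j and Atp5j2 of ATP synthase. Of the 12, Sdhd and Ndufa8 kept the call under all 16 alternatives. That of Atp5l was 0.27 (adjusted p = 0.10) with its processed copies added.

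Processed copies, which are outside the genes themselves, held over 10% of the joint counts for 7 genes, though the copy of Ndufs5 was at 0 in one 1-week and one 3-week library. The copies held 100% of the joint counts for Atp5g2, 73.5% for Atp5l, 47.0% for Cox7c, 30.1% for Ndufb4, 22.3% for Ndufa12, 15.5% for Ndufs5 and 11.8% for Atp5j. Groups of 2 libraries are too small for a test of a single outlying library.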

How the results depend on the processing

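Of 53 calls on respiratory chain genes over the 3 comparisons, 0 changed direction under any of the 16 alternatives and 9 held in all of them. In the fits without a library, genes called over all tested ran from 147 to 1145 at 1 week (979 with all 6), from 1362 to 2392 at 3 weeks (2626) and from 1502 to 2725 between the times (2759), and 1537 at 1 week with no filter. Respiratory chain genes called higher ran from 2 to 16 at 1 week and from 8 to 21 at 3 weeks, with 0 to 1 lower at 3 weeks, and between the times from 2 to 7 higher and from 1 to 7 lower. The median of the subunits ran from 0.19 to 0.36 at 1 week and from 0.13 to 0.32 at 3 weeks. With offsets for length and GC content 7 genes were higher and 3 lower at 1 week (median 0.13), the median at 3 weeks was 0.14, and between the times 11 were higher and 3 lower (median 0.048). With the offsets and a replicate block, 7 were higher at 1 week (median 0.13), the median at 3 weeks was 0.14, and 11 were higher and 3 lower between the times (median 0.049). With library totals, 11 were higher at 3 weeks (median 0.095, against -0.11 for all genes). Between the times 2 were then higher and 19 lower (median -0.24, against -0.22 for all genes). With no filter, 10 were lower between the times.

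The replicate block alone gave 15 genes higher at 1 week, 24 higher and 1 lower at 3 weeks, and 6 higher and 5 lower between the times, and ended the calls of Atp5h at 1 week and of Ndufs3 between the times. Some values that had not passed the test turned sign. The log2 fold change of Sdha was -0.017 at 1 week without the second naive library, where leaving out libraries gave -0.017 to 0.10, and -0.078 between the times with library totals. That of Ndufs3 at 3 weeks was -0.084 with library totals and ran from -0.15 to 0.27 without a library. The cause of these changes was not tested. Sums with processed copies, an alternative chosen after seeing the data, ended 5 of the 53 calls. Leaving mitochondrially encoded genes out of the totals, their share of counts and their median were not run, since those genes were not in the count table used here.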
